A study of Mus musculus with 2 samples.

Results

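Plasmacytoid dendritic cells (pDCs) of kidneys from MRL-*lpr* mice were chosen by transcript counts. A cell barcode was taken as a pDC if it had at least 2 unique molecular identifiers (UMIs) of *Siglech*, at least 1 UMI of *Tcf4* or *Cox6a2*, and 0 UMIs of *Cd3d*, *Cd3e* and *C1qa*, once barcodes under 200 genes or over 20% mitochondrial UMIs were dropped. The choice held 154 of 21661 cells, 91 of 11429 (0.796%; exact Clopper-Pearson 95% interval 0.642–0.977%) in the young library and 63 of 10232 (0.616%; 0.473–0.787%) in the old library. Without cells that had UMIs of *Cd79a*, *Ms4a1*, *Trac*, *Lyz2* or *Slc34a1* the shares were 0.297% (0.206–0.415%) and 0.352% (0.247–0.487%), so the order of the libraries turned. The intervals of the libraries overlapped with and without this step, so neither order was resolved. *Slc34a1*, a gene of tubule cells, had a UMI in 57 of 91 young and 17 of 63 old pDCs. Of the 2968 young and 4807 old cells placed in an immune class, pDCs were 3.07% and 1.31%. The values of *Siglech* and the other genes of the choice set the members and are therefore no finding.

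MRL-*lpr* is a lupus-prone strain that carries a defective *Fas* allele, so both groups lack normal Fas-mediated removal of lymphocytes, and no strain without the disease was sequenced in the data used here. The study asked how innate lymphoid cells (ILCs) of the kidney change as lupus nephritis develops, and sequenced 1 library of pooled kidneys from young mice and 1 from old mice. By the study's methods the young mice were 5 to 8 weeks old and the old mice older than 16 weeks. Before 10x 3′ sequencing the suspensions went through density centrifugation, magnetic enrichment of ILCs and sorting for viability. A share of a library is thus not a frequency in the kidney. With 1 library per age there is no replicate, no p-value was computed, and all intervals and limits cover counting error only.

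pDCs are a rare bone marrow-derived dendritic cell type that recirculates through blood and lymphoid organs. They sense nucleic acids in endosomes through Toll-like receptor 7 and Toll-like receptor 9, which signal through MyD88 and the transcription factor Irf7, and they are known as major producers of type I interferon. In lupus, immune complexes that contain RNA or DNA can reach these receptors, and pDCs have been found in inflamed kidneys. The E protein Tcf4 holds their identity, while Siglech and Bst2 are surface receptors that restrain interferon production.

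The mice were pooled, and the study's methods describe the animals as female. Transcripts of the Y-linked genes *Uty*, *Kdm5d*, *Eif2s3y* or *Ddx3y*, and none of *Xist*, were nevertheless found in 76 of the 91 young pDCs and 33 of the 63 old pDCs. UMIs of *Xist* without Y-linked UMIs were found in 6 young and 19 old pDCs, so sex composition cannot be told apart from age in the whole comparison, and values among the Y-linked cells alone are given beside the main differences. pDCs held 928879 UMIs in the young and 894190 in the old library, with a median of 8661 UMIs (600–48827) and 2895 genes per young cell and 11893 UMIs (895–64083) and 3440 genes per old cell. Over 20000 UMIs were counted in 6 young and 8 old pDCs. Scrublet, a doublet caller, marked 8 young and 2 old pDCs, which were kept. Of the barcodes kept, 26 occurred in both libraries, and none of them was a pDC in both. Numbers of cells with a UMI are given as counted and depend on these depths, except where a share is said to be thinned.

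Promoter sequences of the genes on which the results turn are shown first, because they mark the loci of 2 groups, genes that set pDCs apart from other kidney cells and genes whose level differed between the ages. They come from RefSeq on GRCm38.p6, run 5′ to 3′ along the gene and span 250 bases before to 50 bases after a transcription start. *Ccr9* (chr9:123766961-123767260, + strand) encodes the receptor for the gut chemokine CCL25, and *Klk1* (chr7:44225110-44225409, + strand) encodes a tissue kallikrein, a serine protease. Capitals mark CAGGTG, the E-box CACCTG read on the other strand, a hexamer of the kind that E proteins bind.
Ccr9: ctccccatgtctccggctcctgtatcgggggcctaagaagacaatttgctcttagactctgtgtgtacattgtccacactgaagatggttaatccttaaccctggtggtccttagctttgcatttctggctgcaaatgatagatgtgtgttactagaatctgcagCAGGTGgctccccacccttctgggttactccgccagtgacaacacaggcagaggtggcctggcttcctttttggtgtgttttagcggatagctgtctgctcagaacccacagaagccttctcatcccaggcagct
Klk1: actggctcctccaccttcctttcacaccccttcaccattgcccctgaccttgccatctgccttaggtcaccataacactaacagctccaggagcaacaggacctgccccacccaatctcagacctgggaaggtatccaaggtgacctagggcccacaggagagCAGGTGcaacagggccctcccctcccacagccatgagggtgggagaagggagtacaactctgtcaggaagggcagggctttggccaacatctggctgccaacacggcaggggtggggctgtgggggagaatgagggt
*H2-K1* (chr17:34000298-34000597, − strand) and *H2-D1* (chr17:35262844-35263143, + strand) encode classical class I heavy chains, and *B2m* (chr2:122147437-122147736, + strand) encodes their light chain. Capitals mark GGGATTCC, an NF-κB-like motif, in the first 2 and GAAACTGAA, a match to the interferon response motif GAAANNGAA, in *B2m*.
H2-K1: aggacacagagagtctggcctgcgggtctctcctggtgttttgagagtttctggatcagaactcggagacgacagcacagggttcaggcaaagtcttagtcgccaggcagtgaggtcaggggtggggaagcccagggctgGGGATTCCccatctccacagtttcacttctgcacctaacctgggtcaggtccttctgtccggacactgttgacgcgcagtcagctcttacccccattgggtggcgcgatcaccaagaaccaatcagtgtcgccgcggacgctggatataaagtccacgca
H2-D1: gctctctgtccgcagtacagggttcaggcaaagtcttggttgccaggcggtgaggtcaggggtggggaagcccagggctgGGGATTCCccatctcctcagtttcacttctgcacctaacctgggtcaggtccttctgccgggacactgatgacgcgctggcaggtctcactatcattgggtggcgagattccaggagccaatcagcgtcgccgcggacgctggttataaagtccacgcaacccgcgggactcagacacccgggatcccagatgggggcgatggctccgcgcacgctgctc
B2m: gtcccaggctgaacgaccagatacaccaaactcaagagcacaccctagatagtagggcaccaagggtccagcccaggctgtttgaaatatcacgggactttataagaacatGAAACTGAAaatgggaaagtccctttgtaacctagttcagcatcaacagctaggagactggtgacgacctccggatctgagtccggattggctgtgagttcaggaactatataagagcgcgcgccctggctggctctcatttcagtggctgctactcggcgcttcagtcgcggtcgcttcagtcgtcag

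Motifs were searched on both strands as written. CACCTG stood in 5 of the 19 leading pDC genes with a RefSeq promoter (26.3%) and in 22.6% of the 27025 genes of the table, and the E-box CAGCTG stood in 10.5% against 18.3%. TGTGGT, a RUNX core, stood in 21.1% of the leading genes and 18.9% of all genes. The leading pDC genes thus held these letters at shares near those of all genes. GGGATTCC stood in 2 of the 9 class I presentation genes with a promoter, *H2-K1* and *H2-D1*, and in 1.23% of all genes. GAAANNGAA stood in 19 of 30 type I interferon-stimulated genes (63.3%), 2 of 9 class I presentation genes (22.2%) and 9.76% of all genes. A match is a description of the letters and not of binding. A gene without a match, such as *H2-K1* or *H2-D1* for GAAANNGAA, may hold a variant of the motif that this search does not count.

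Most of the cells carried the markers of their label. Of 14 pDC markers that the choice did not use, a median of 12 had a UMI in a young and in an old pDC, and the lowest number was 5. Cells with 2 to 4 *Siglech* UMIs numbered 2 in the young and 4 in the old library and had a median of 7 markers. Cells with a single *Siglech* UMI that otherwise met the choice numbered 9 and 3 and had a median of 2 and 5 markers. A further 8 young and 16 old cells had at least 2 *Siglech* UMIs but also UMIs of *Cd3d*, *Cd3e* or *C1qa*. B-cell class cells had a median of 3 of the 14 markers in both libraries, but up to 6 in the young and 7 in the old one, and 7 of 380 young and 20 of 180 old B cells had at least 5, the lowest number among pDCs. Of the old pDCs with 3 *Siglech* UMIs, 1 with 8524 UMIs and 5 markers had 79 UMIs of *Ly6d* and 204 of *Cd74*, and 1 with 24738 UMIs and 7 markers had 87 and 183. Neither of them had a *Ccr9* UMI, and whether they are B cells was not tested.

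Levels are stated in CPM (counts per 1e6 UMIs of the class), pooled over the cells of a class, with exact Poisson 95% intervals in parentheses. *Bst2*, which encodes tetherin, was at 3571 CPM in young and 3098 CPM in old pDCs and had a UMI in every one of the 154 cells. Its next highest level was in macrophages, at 327 and 700 CPM. *Irf8*, a transcription factor that pDCs share with conventional dendritic cells, was at 2927 and 2983 CPM, below 2-fold of its next class in the young library, conventional dendritic cells at 1588 CPM. Both genes had a UMI in nearly all cells, whereas *Ccr9*, at a lower level, had one in fewer of them.

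*Ccr9* was at 770 CPM in young and 797 CPM in old pDCs, and its next class was ILC2s, at 144 and 312 CPM. As counted, 85 of 91 young and 57 of 63 old pDCs had a *Ccr9* UMI. After each cell was thinned to 1000 UMIs, which left out 1 cell per library, the share was 45.6% (35.0–56.4%) and 48.4% (35.5–61.4%), with medians of 8661 and 11893 UMIs per cell before thinning. In proximal tubule cells, which should lack the gene, the share thinned to the same depth was 0.0622% in the young library and 0 of 3490 cells in the old library, which allows up to 0.106%, at median depths of 13365 and 14773 UMIs. The *Ccr9* level thus differed between the ages by less than its counting error (log2 ratio 0.05; exact binomial 95% interval −0.10 to 0.20).

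**Figure D1:**
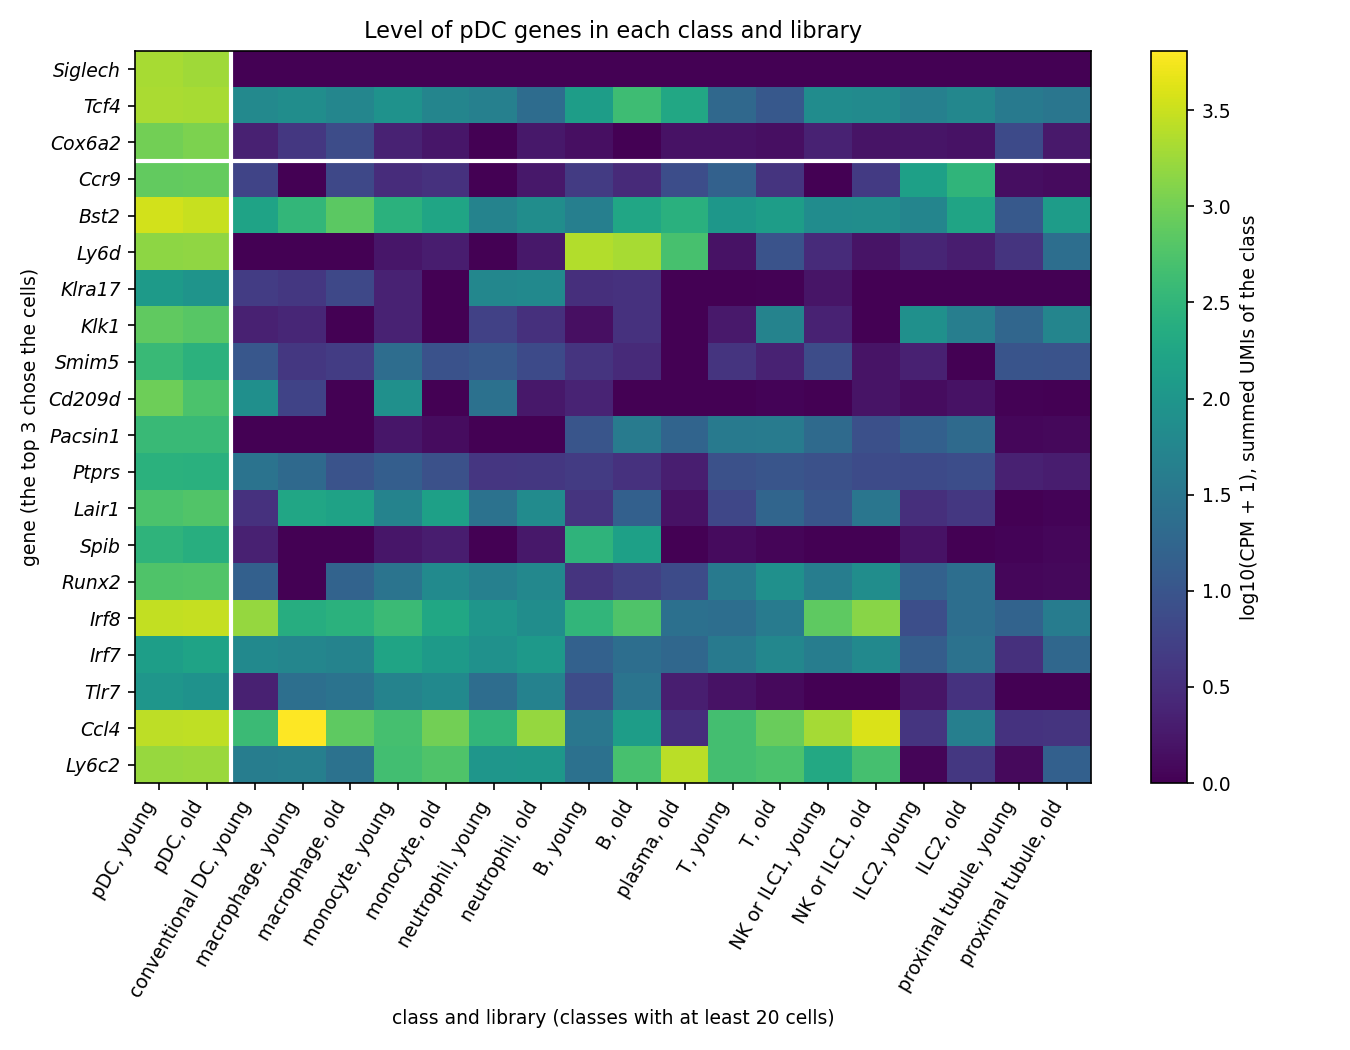
Levels of 20 pDC genes as log10(CPM + 1), by colour, in each class and library with at least 20 cells. The 3 genes in the upper block, above the horizontal white line, chose the cells; below it, *Ccr9*, *Bst2*, *Cd209d* and *Pacsin1* were highest in both pDC columns, while *Ly6d* was higher in B cells and *Ccl4* in macrophages of the young library and NK or ILC1 cells of the old library.

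Genes were called above every other immune class if their CPM in pDCs was at least 2-fold that of each of them in both libraries. Here and below, classes under 20 cells in a library were not compared. These were conventional dendritic cells in the old library (10 cells) and plasma cells in the young library (6 cells). Of 5312 genes tested, 154 met the 2-fold limit (2.90%). The choice of cells by 3 genes makes such an excess likely for any gene that follows them, so the count is a description. Among a list of 29 pDC surface and lineage genes, 13 of 27 tested met it, and among 19 pDC transcription factors 3 of 18 tested met it. These 3 were *Runx2* at 565 and 599 CPM, *Tsc22d1* at 398 and 375 CPM and *Mycl* at 84.0 and 66.0 CPM in young and old pDCs. *Runx2*, a Runt factor known for bone formation and for the exit of pDCs from bone marrow, had its next level in young neutrophils at 44.4 CPM and old T cells at 79.6 CPM.

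The other identity factors were shared with other classes. *Spib*, an Ets factor of pDCs and B cells, was at 298 CPM in young pDCs and 297 CPM in young B cells, and at 239 and 143 CPM in the old library. *Bcl11a* was at 347 and 440 CPM in pDCs and at 187 and 125 CPM in B cells. *Irf7*, the factor that drives interferon gene transcription, was at 138 and 162 CPM, with 168 and 117 CPM in monocytes. *Ly6d* was at 1450 and 1482 CPM and below the B-cell class in both libraries.

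The 25 leading genes by their excess over the next class were headed by *Klk1b27*, a kallikrein of the same chromosome 7 cluster as *Klk1*. It was at 271 CPM in young and 255 CPM in old pDCs, and at least 56.5-fold and 90.2-fold above every other immune class, with 3 counts taken as the limit for a class that had none. Kallikrein genes are similar in sequence, so reads may be split or lost among them. *Sh3bgr* (161 and 139 CPM), *Pir* (145 and 154 CPM), *Gm21762* (128 and 149 CPM) and *Pdzd4* (118 and 77.2 CPM) followed. *Pir* encodes pirin, an iron-binding nuclear protein. The highest value any of the compared immune classes could have for these 4 genes was 4.80 CPM in the young library, the limit of the macrophage class.

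Several of the leading genes are best known from muscle, nerve or epithelium. *Atp2a1*, the calcium pump of fast skeletal muscle, was at 109 and 117 CPM and had a UMI in 56 of 91 young pDCs. *Myh13*, a muscle myosin heavy chain, was at 74.3 and 57.0 CPM. The glutamate receptor genes *Grm8* and *Gria3* were at 56.0 and 41.4 CPM and at 77.5 and 92.8 CPM. *Col17a1*, a collagen of skin basement membrane, was at 42.0 and 38.0 CPM. None of these was found in proximal tubule cells above 0.157 CPM except *Gria3*, at 25.4 and 14.4 CPM.

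*Havcr1* encodes KIM-1, which is widely used as a marker of kidney tubule injury. In these data it was at 96.9 CPM (77.9–119) in young and 108 CPM (88.0–132) in old pDCs, spread over 55 of 91 and 44 of 63 cells. Its level in the proximal tubule class was 3.36 CPM for young and 7.31 CPM for old kidneys, and its next immune class was at 3.62 CPM (T cells) and 4.92 CPM (B cells). The largest share of its UMIs in a single pDC was 4.44% in the young and 7.22% in the old library.

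*Cd209d*, a C-type lectin, was at 925 CPM in young and 530 CPM in old pDCs (log2 ratio −0.80, −0.97 to −0.64), with a UMI in 83 and 49 cells. Its paralog *Cd209a* lies in the same cluster on chromosome 8 and was at 383 and 158 CPM (log2 ratio −1.28), with a UMI in 66 of 91 young and 33 of 63 old cells. Both were lower in the old library also among Y-linked cells, with log2 ratios of −0.84 (−1.05 to −0.63) and −0.93 (−1.29 to −0.58). They are similar in sequence, and reads may be split between them. Other genes used to mark conventional dendritic cells were present too, with *Cadm1* at 356 and 334 CPM, *Clec10a* at 163 and 139 CPM and *Clec9a*, a receptor for dead cells, at 82.9 and 62.6 CPM, whereas *Xcr1* had no UMI and *Ccr7* 1 UMI.

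Receptors and adaptors of nucleic acid sensing were led by those of the endosome. *Tlr7*, the single-stranded RNA receptor, had 93 UMIs in young and 78 UMIs in old pDCs, which is 100 and 87.2 CPM, in 49 of 91 and 36 of 63 cells. Thinned to 1000 UMIs, 8.89% (3.92–16.8%) of young and 4.84% (1.01–13.5%) of old cells had one. The log2 ratio was −0.20 (−0.65 to 0.25), so no difference was detectable at this depth. Monocytes followed at 50.1 and 63.5 CPM, and the proximal tubule class had 0.0178 CPM in the young library and no UMI in the old library.

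*Tlr9*, the receptor for CpG DNA, gave 3 UMIs in 3 young cells and 5 UMIs in 3 old cells. This is at the limit of the depth, and it cannot be read as absence of the receptor. *Tlr12* had 29 and 18 UMIs, *Tlr3* 0 and 1, and *Tlr8* none. The chaperone *Unc93b1*, which carries these receptors to endosomes, was at 675 and 683 CPM in 90 of 91 and 62 of 63 cells. *Slc15a4*, a lysosomal transporter needed for their signalling, was at 141 and 121 CPM, and *5430427O19Rik*, the counterpart of its partner TASL, at 62.4 and 55.9 CPM.

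*5430427O19Rik* and *Ctsl*, a cathepsin that processes endosomal receptors, were the 2 of 18 sensing genes tested that stood at least 2-fold above every other immune class. Over all genes tested this share was 2.90%. *Ctsl* was at 1402 CPM in young and 1079 CPM in old pDCs (log2 ratio −0.38, −0.50 to −0.26; −0.31, −0.46 to −0.15 among Y-linked cells). The nuclease gene *Pld4*, which limits ligands of these receptors, was at 726 and 747 CPM with a UMI in all but 1 of the cells. None of the 17 sensing genes with at least 50 UMIs was counted as higher or lower between the ages. Over all genes tested 1.92% were higher and 2.60% lower, so a count of 0 among 17 is near these shares. The median log2 ratio of 22 sensing genes was 0.026, against −0.047 over all 7938 genes with at least 20 UMIs.

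Interferon genes themselves had almost no counts. Of 20 type I and type III interferon genes, 19 had no UMI in any pDC, and *Ifnk* had 2 UMIs in young and 6 in old pDCs. With 3 counts as the limit, a gene without UMIs could still have 3.23 CPM in young pDCs or 3.35 CPM in old ones. The *Ifna* genes are near-identical, and reads that match several genes equally well are not counted by Cell Ranger, so a count of 0 says little about them. *Il12a* had 18 and 30 UMIs, *Tnf* 8 and 23 UMIs, *Il6* 0 and 1, and *Gzmb* none.

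The chemokine gene *Ccl4* was the exception among secreted factors. It stood at 2659 CPM (2555–2766) in young and 2804 CPM (2695–2916) in old pDCs and had a UMI in 74 of 91 and 60 of 63 cells. Macrophages were higher in the young library, at 6440 CPM, and NK or ILC1 cells were the highest in the old library, at 3967 CPM. *Ccl3* was at 141 and 212 CPM in pDCs, in 31 and 19 cells. Among cells, *Ccl4* ranged from 0 to 124 UMIs per 10000 in the young and from 0 to 160 in the old library, with medians of 20.2 and 19.7.

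Receptors of trafficking were detected in many pDCs. *Ccr2*, an inflammatory homing receptor, was at 323 and 324 CPM with a UMI in 75 of 91 young and 52 of 63 old cells. *Cxcr3* was at 93.7 and 80.5 CPM, in 46 and 30 cells. *Itga4* and *Itgb7*, the subunits of integrin α4β7, were at 336 and 296 CPM and at 171 and 216 CPM. Thinned to 1000 UMIs, *Itgb7* had a UMI in 23.3% (15.1–33.4%) of young and 24.2% (14.2–36.7%) of old cells. *P2ry14*, a nucleotide sugar receptor, was at 341 and 255 CPM and above every other immune class. *S1pr1* had no UMI.

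Between the ages, 5115 genes had at least 50 UMIs over both libraries. A gene was counted as higher or lower if its CPM differed at least 2-fold and the exact binomial 95% interval of the log2 ratio excluded 0. By this, 98 genes were higher in old pDCs (1.92%) and 133 lower (2.60%). Many of these counts rest on few cells. In the old library, the median share of a higher gene's UMIs in a single cell was 23.6%, against 9.68% over all genes tested, and in the young library that of lower genes was 25% against 7.89%.

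Without cells that had UMIs of *Mki67*, *Top2a*, *Lyz2*, *C1qb*, *Cd79a* or *Ms4a1*, 76 young and 41 old pDCs remained, and 25 of 3733 genes were higher and 66 lower. Without cells of over 20000 UMIs, 26 of 4024 were higher and 55 lower. Among Y-linked cells, 32 of 3709 were higher and 58 lower. Of the 98 higher genes, 8 were so in all 3 of these choices, namely *Cd300a*, *Csf2rb2*, *H2-K1*, *H2-Q4*, *H2-T22*, *Iglc2*, *Klrk1* and *Pou2f2*. Of the 133 lower genes, 13 were, namely *Angptl7*, *Apoe*, *Cacybp*, *Cyr61*, *Dedd2*, *Hsph1*, *Mapk8ip3*, *Pck1*, *Pim3*, *Slc34a1*, *Slc4a4*, *Stip1* and *Timp3*. *Slc34a1*, *Slc4a4* and *Pck1* are genes of the proximal tubule, and *Hsph1*, *Stip1* and *Cacybp* encode chaperones or their partners. These 8 and 13 were chosen after their values were seen.

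**Figure D2:**
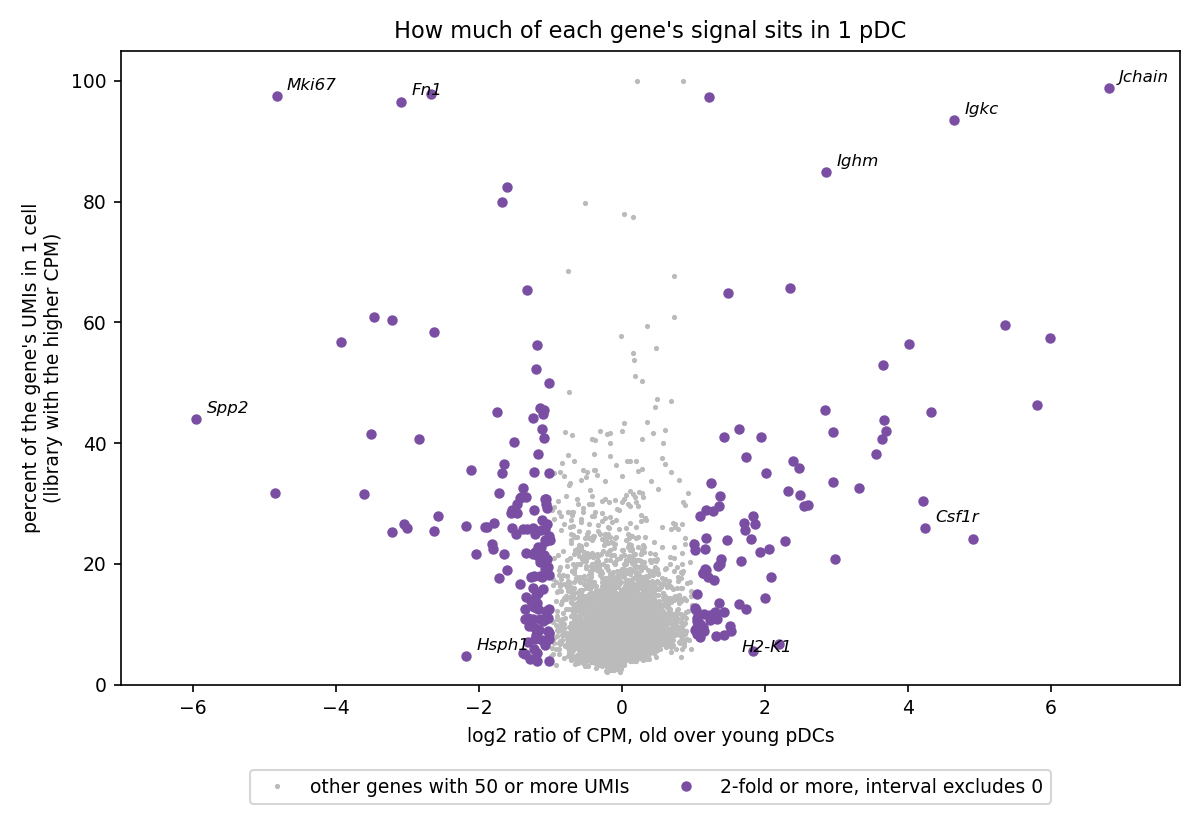
Log2 ratio of CPM, old over young pDCs, against the percentage of the gene's UMIs found in its single highest cell of the library with the higher CPM. Only genes with at least 50 UMIs and a UMI in both libraries are drawn. Purple points are those counted as higher or lower, and grey points are the others. Counted genes without a UMI in 1 library, such as *Chil1*, *Lyz1* and *Retnla*, are not drawn. *Jchain*, *Igkc*, *Mki67* and *Fn1* had over 90% of their UMIs in 1 cell, while *H2-K1* and *Hsph1* were spread over many.

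MHC class I genes were higher in the old library. *H2-K1* was at 1052 CPM (987–1120) in young and 3018 CPM (2906–3134) in old pDCs, a log2 ratio of 1.52 (1.41–1.63), and had a UMI in 88 of 91 and all 63 cells. In single cells it ranged from 0 to 46.6 UMIs per 10000, with a median of 9.61, in the young library, and from 6.71 to 66.0, with a median of 29.4, in the old library. The ranges overlapped, and the old median lay above most young cells.

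*H2-D1* was at 1286 and 2472 CPM (log2 ratio 0.94, 0.84–1.04), and *B2m* was at 1355 and 2956 CPM (1.12, 1.03–1.22). *H2-K1* and *H2-D1* together gave a median of 21.7 UMIs per 10000 (0–79.1) in young and 55.6 (16.9–104) in old pDCs. Of the old pDCs, 60 of 63 (95.2%) lay above the young median. The class I genes are closely related, and the reads of the H2-k haplotype of this strain were aligned to a C57BL/6 reference, so the split among them is uncertain, in both libraries alike.

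The rest of the class I pathway lay in the same direction. Of 11 genes in the list, 10 had at least 20 UMIs and all 10 had a log2 ratio above 0, with a median of 0.775. Over all 7938 genes with at least 20 UMIs, 45.4% had a ratio above 0. *Psmb9*, an immunoproteasome subunit, was at 166 and 324 CPM (0.97, 0.68–1.26), and the peptide transporter gene *Tap1* was at 56.0 and 102 CPM (0.86, 0.36–1.38). *Psmb10* had an interval that held 0 (0.23, −0.08 to 0.53). Of the 10, *H2-K1* and *B2m* were at least 2-fold higher, against 1.92% of all genes tested.

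Among Y-linked cells the log2 ratios were smaller, 1.25 (1.11–1.38) for *H2-K1*, 0.67 (0.54–0.80) for *H2-D1* and 0.86 (0.73–0.98) for *B2m*, and *B2m* then fell short of 2-fold. Without cells carrying cycling, myeloid or B-cell UMIs they were 1.38 (1.25–1.51), 0.85 (0.72–0.97) and 0.82 (0.70–0.94). Each of these 6 intervals excluded 0. *Psmb9* gave 0.65 (0.29–1.02) among Y-linked cells, while the intervals of *Tap1* (0.47, −0.21 to 1.13) and *Psmb10* (−0.17, −0.59 to 0.23) held 0.

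**Figure D3:**
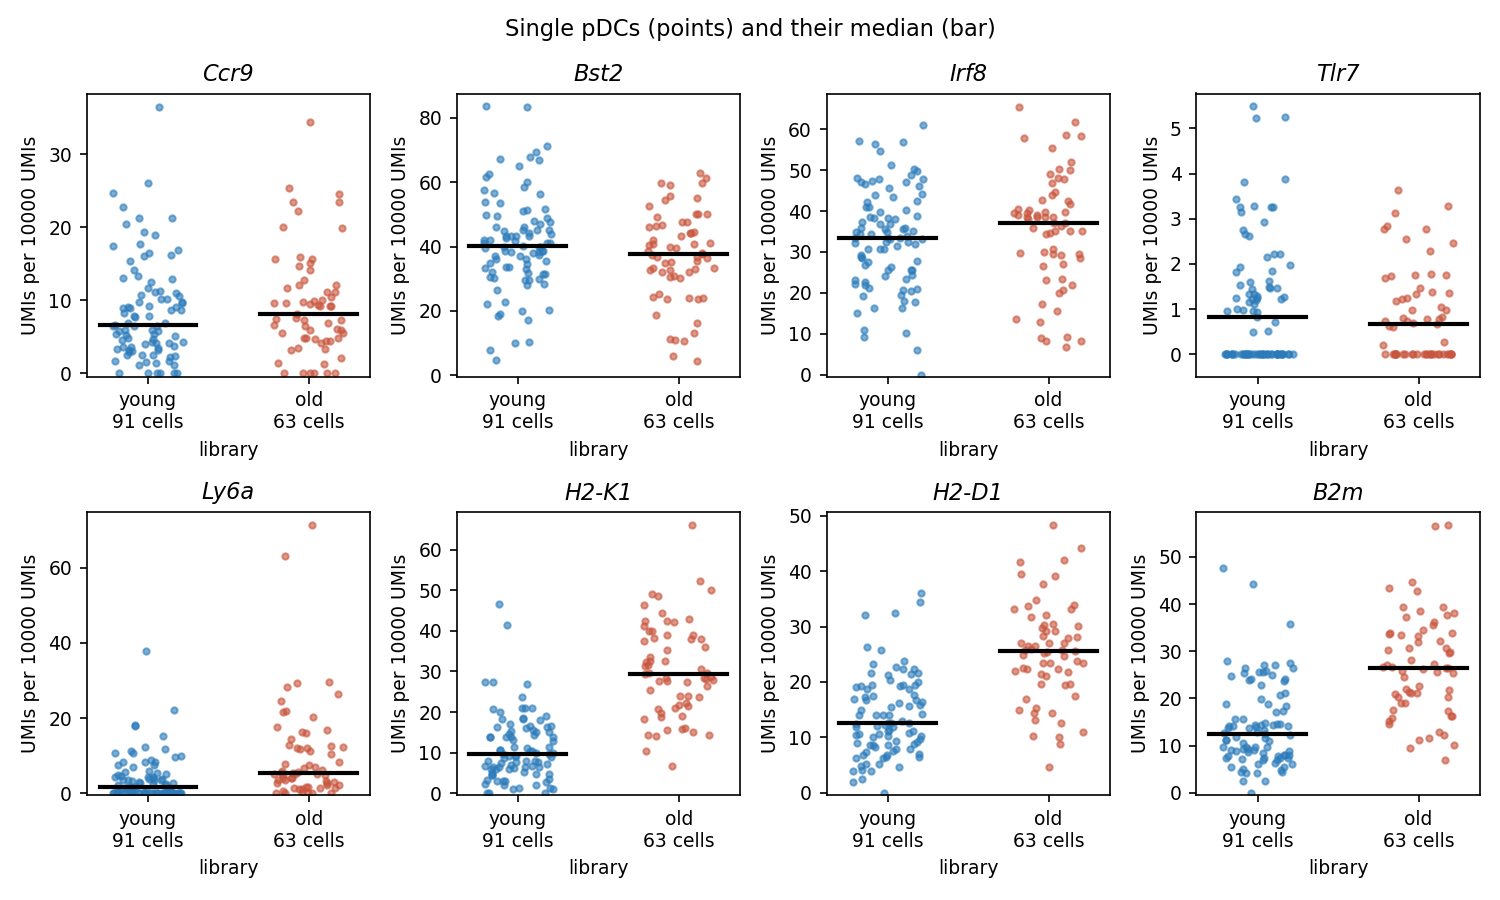
UMIs per 10000 in each of the 91 young and 63 old pDCs for 8 genes, each point a cell and each bar the median. *Ccr9*, *Bst2*, *Irf8* and *Tlr7* overlapped over nearly their whole range, while *H2-K1* had medians of 9.61 and 29.4, and *H2-D1* and *B2m* had medians of 12.5 in young and 25.6 and 26.4 in old cells.

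Other classes showed the class I difference too. The median log2 ratio of the class I list was 0.882 in macrophages, 1.44 in B cells, 1.38 in ILC2s, 0.675 in T cells and 3.64 in proximal tubule cells, where *H2-K1* was at 32.7 and 593 CPM. In the old library pDCs held more *H2-K1* than the tubule cells (3018 against 593 CPM). The part of tubule RNA in the pDC difference was not tested.

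**Figure D4:**
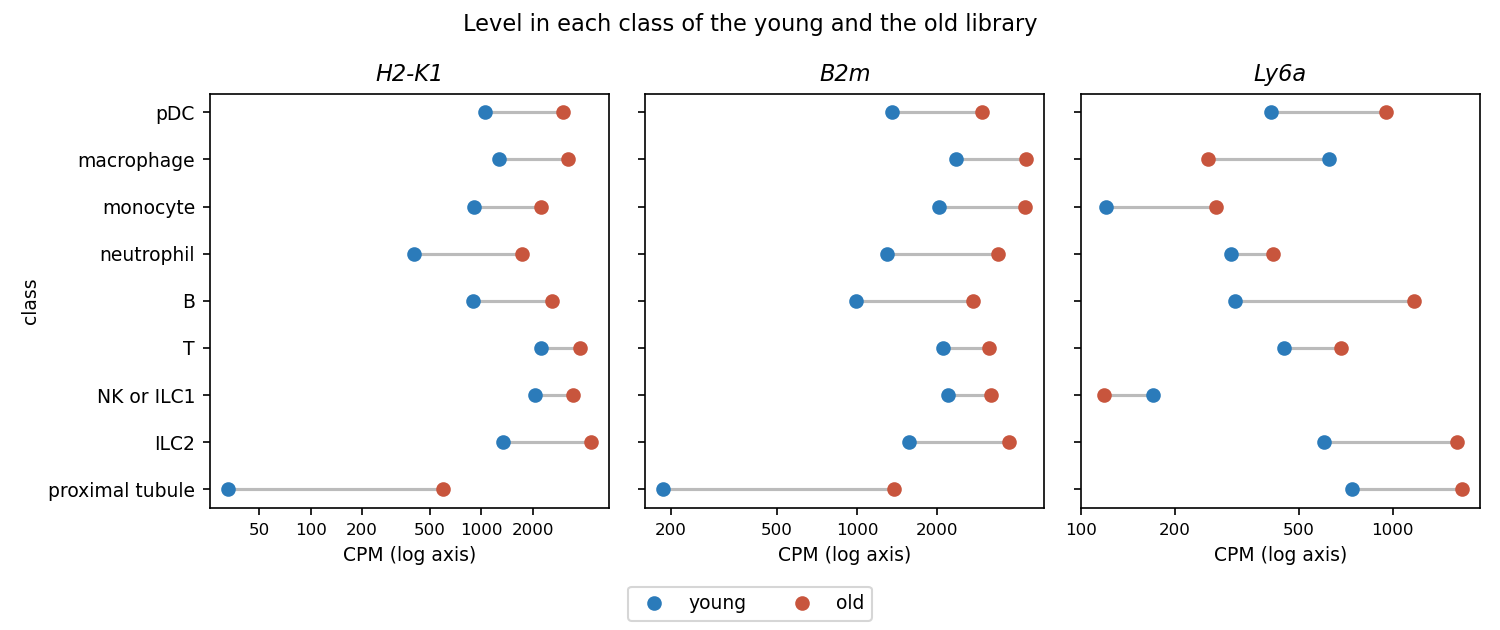
CPM of *H2-K1*, *B2m* and *Ly6a* in 9 classes of the young (blue) and old (red) library, on log axes. *H2-K1* and *B2m* were higher in the old library in all 9 classes, while *Ly6a* was lower there in macrophages and in NK or ILC1 cells.

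MHC class II genes differed less. *Cd74*, the invariant chain, was at 6287 and 7809 CPM (log2 ratio 0.31, 0.26–0.36), *H2-Aa* at 1657 and 2170 CPM (0.39, 0.29–0.49) and *H2-Ab1* at 1196 and 1742 CPM (0.54, 0.43–0.66). *Ciita*, the master regulator of class II transcription, was the 1 member at least 2-fold higher, with 28 and 55 UMIs (1.03, 0.35–1.74). Of 11 members with at least 20 UMIs, 9 had a ratio above 0, against 45.4% of all genes, with a median of 0.389, and 1 was at least 2-fold higher, against 1.92%. Among Y-linked cells *Cd74* gave 0.10 (0.04–0.17) *H2-Aa* 0.19 (0.06–0.31) and *Ciita* 0.79 (−0.07 to 1.65). The median of the list was −0.045 in macrophages, −1.26 in monocytes and −0.65 in neutrophils, but 0.685 in B cells, 1.43 in NK or ILC1 cells, 3.03 in T cells, 4.34 in ILC2s and 5.45 in proximal tubule cells. The part of RNA from these cells in the pDC levels was not tested.

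Type I interferon-stimulated genes were mostly low. *Isg15* had 8 UMIs in young and 17 in old pDCs, *Ifit1* 1 and 4, *Oas1a* 1 and 5, *Mx1* 8 and 8 and *Usp18* 9 and 6. Of 43 genes in the files, 25 had at least 20 UMIs, with a median log2 ratio of 0.248, and 20 of the 25 (80%) had a ratio above 0, against 45.4% of all genes. Of the 16 with at least 50 UMIs, 3 were at least 2-fold higher in old pDCs, against 1.92% of all genes tested. *Ly6a*, the Sca-1 antigen, was at 407 CPM (367–450) in young and 954 CPM (891–1020) in old pDCs (1.23, 1.05–1.41), with a UMI in 56 of 91 and 58 of 63 cells. Thinned to 1000 UMIs, the share with a *Ly6a* UMI was 27.8% (18.9–38.2%) and 45.2% (32.5–58.3%), and these intervals overlapped.

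*Ifitm3*, which encodes an antiviral membrane protein, was another of these and rested on 7 young and 10 old cells. Without pDCs of over 20000 UMIs its log2 ratio was −2.02. *Ly6a* gave 0.98 (0.77–1.20) among Y-linked cells, and 1.33 (1.12–1.53) without cells carrying cycling, myeloid or B-cell UMIs. In other classes, *Ly6a* had log2 ratios of −1.29 in macrophages and 1.42 in ILC2s. It was also abundant in tubule cells, at 743 and 1665 CPM, and the part of tubule RNA in the pDC level was not tested.

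Genes induced by interferon-γ had higher counts in the old library. Of 27 genes, 16 had at least 20 UMIs, and all 16 had a log2 ratio above 0, with a median of 1.02, and 4 of the 9 with at least 50 UMIs were at least 2-fold higher. Over all genes, 45.4% had a ratio above 0 and 1.92% were at least 2-fold higher. The 16 passed the limit of 20 UMIs partly by their old counts, some of them, such as *Iigp1* and *Gbp2*, by these alone. *Iigp1*, 1 of the 4, also passed the limit of 50 UMIs by its old counts alone. The direction and the count of 4 are therefore a description. *Irf1* was at 152 and 274 CPM (0.85, 0.55–1.16), in 57 of 91 and 49 of 63 cells, and among Y-linked cells its ratio was 1.11 (0.73–1.49). *Irgm1*, an immunity-related GTPase, was at 33.4 and 67.1 CPM (1.01, 0.36–1.68), and 1.15 (0.40–1.92) among Y-linked cells.

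*Iigp1* had 2 UMIs in young and 79 in old pDCs, 59.5% of the latter in 1 cell that Scrublet called a doublet. *Gbp2* had 1 and 22 UMIs, *Gbp3* 6 and 31, *Igtp* 4 and 36 and *Cd274*, the gene of the checkpoint ligand PD-L1, 4 and 36, and these were found in 9 to 16 old cells each. The list's median was 0.72 among Y-linked cells and 0.69 without cells of over 20000 UMIs. It was 2.30 in B cells, 2.26 in ILC2s, 4.75 in tubule cells and 0.161 in macrophages.

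Of 13 interferon and growth factor receptor genes with at least 50 UMIs, 3 were at least 2-fold higher in old pDCs, against 1.92% of all genes tested. *Csf1r*, 1 of them, had 7 young and 127 old UMIs and passed the limit of 50 UMIs by its old counts alone. The count of 3 is therefore a description. Without cells of over 20000 UMIs, *Csf1r* had no UMI in old pDCs. With 3 counts in place of none, its log2 ratio was then −0.92, which is a bound. The β chain genes *Csf2rb* and *Csf2rb2* of cytokine receptors were higher in old pDCs. *Csf2rb* encodes the chain shared by the GM-CSF, interleukin-3 and interleukin-5 receptors, and its mouse paralog *Csf2rb2* a chain specific to interleukin-3. *Csf2rb* was at 99.0 CPM (79.8–121) in young and 211 CPM (182–244) in old pDCs (log2 ratio 1.09, 0.73–1.47), and *Csf2rb2* was at 59.2 and 130 CPM (1.13, 0.66–1.62). *Csf2rb2* had a UMI in 39 of 91 and 42 of 63 cells and stood above every other immune class. Reads may be split between the paralogs. Among Y-linked cells the ratios were 0.97 (0.53–1.42) and 1.03 (0.46–1.60), so *Csf2rb* was then just under 2-fold. The interferon receptor genes *Ifnar1*, at 147 and 161 CPM, and *Ifnar2*, at 252 and 228 CPM, had intervals that held 0.

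Receptors that restrain activation had a median log2 ratio of −0.010 over 14 genes. *Lair1*, a collagen receptor, was at 529 and 598 CPM, and *Ptprs*, a phosphatase that restrains pDC activation, at 268 and 265 CPM. *Cd300a*, which binds phospholipids of dying cells, was the 1 of 10 members tested at least 2-fold higher, against 1.92% of all genes, with 27 UMIs in 21 young cells and 104 UMIs in 38 old cells (interval of the log2 ratio 1.38–2.67). It gave 1.29 (0.50–2.11) among Y-linked cells. *Fcer1g*, the Fc receptor γ chain, was at 409 and 919 CPM (1.17, 0.99–1.35), but 0.54 (0.30–0.79) among Y-linked cells and 0.46 (0.24–0.67) without cells of over 20000 UMIs. *Tyrobp*, the adaptor of Siglech, was at 4334 and 3809 CPM, and *Icam1* was at 34.5 and 83.9 CPM (1.28, 0.67–1.93), and 1.67 (0.94–2.43) among Y-linked cells.

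Lymphoid genes are a known trait of part of the pDC pool. *Iglc3*, a λ light chain constant gene, was at 877 CPM (818–940) in young and 778 CPM (722–838) in old pDCs, in 85 of 91 and 56 of 63 cells, above B cells at 496 and 500 CPM. It is near-identical to *Iglc2*, so their reads may be split. *Ighm*, the μ heavy chain, had a UMI in every pDC and was at 1149 CPM in the young library. Its old level of 8317 CPM came mainly from 1 cell, which held 84.9% of the UMIs. *Dntt*, the template-independent DNA polymerase of V(D)J recombination, was at 48.4 and 77.2 CPM in 27 and 28 cells, and *Rag1* and *Rag2* had no UMI.

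The lower genes of old pDCs included heat shock genes. Of 16 immediate early and heat shock genes with at least 50 UMIs, 3 were counted as lower, against 2.60% of all genes tested, and none as higher. *Hsph1*, a co-chaperone of the heat shock protein 110 family, had 127 UMIs in 56 of 91 young cells and 27 UMIs in 15 of 63 old cells, which is 137 and 30.2 CPM (log2 ratio −2.18, −2.84 to −1.57). *Hsp90aa1*, the inducible cytosolic Hsp90, was at 1150 and 505 CPM (−1.19, −1.35 to −1.03), and *Dnajb1*, an Hsp40, was at 183 and 79.4 CPM (−1.20, −1.63 to −0.80). *Hspa1a* had 39 and 3 UMIs, and *Hspa1b* had 30 and none. The constitutive *Hspa8* was at 1744 and 1654 CPM (−0.08, −0.18 to 0.03).

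Among Y-linked cells *Hsph1* gave −2.46 (−3.45 to −1.60) and *Hsp90aa1* −0.99 (−1.20 to −0.79), the latter just under 2-fold. *Dnajb1* gave −1.31 (−1.88 to −0.77) there and 0.10 (−1.45 to 2.08) in the 6 young and 19 old *Xist* cells, and these intervals overlapped. In other classes *Hsph1* had log2 ratios of −1.68 in macrophages, −1.46 in NK or ILC1 cells, −1.37 in ILC2s, −0.99 in B cells, −0.83 in monocytes and −0.62 in T cells, but −0.20 in proximal tubule cells (114 and 99.1 CPM), and −0.50 in neutrophils with an interval that held 0. Of the immediate early genes, *Jun* was at 1597 and 1669 CPM, *Fos* at 958 and 877 CPM, *Fosb* at 825 and 498 CPM (−0.73, −0.90 to −0.56) and *Egr1* at 238 and 285 CPM (0.26, with an interval that held 0). Among Y-linked cells *Egr1* gave −0.63 (−1.03 to −0.24) and *Fosb* −0.57 (−0.79 to −0.36). The list's median over 18 genes was −0.031.

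The secretory pathway, which is large in pDCs, had a median log2 ratio of 0.007 over 36 genes. Within it *Mzb1*, an endoplasmic reticulum co-chaperone of immunoglobulin-secreting cells and pDCs, was at 324 CPM (288–363) in young and 162 CPM (137–191) in old pDCs (interval of the log2 ratio −1.29 to −0.71), in 74 of 91 and 43 of 63 cells. Among Y-linked cells it gave −1.63 (−2.09 to −1.20). In B cells the ratio of *Mzb1* was 1.47 (1.30–1.65). *Ddit3*, the stress factor CHOP, was the 1 of 36 members counted as lower, against 2.60% of all genes, at 74.3 and 31.3 CPM (−1.25, −1.93 to −0.59). It gave −0.85 (−1.70 to −0.06) among Y-linked cells, while *Hspa5* was at 732 and 646 CPM and *Xbp1* at 251 and 237 CPM.

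RNA of other kidney cells was present in pDC barcodes. Of 14 proximal tubule markers, all 14 had UMIs in pDCs, and their summed level was 11842 CPM in young and 7612 CPM in old pDCs, against 90831 and 81554 CPM in the tubule class. Their median log2 ratio was −0.827, and 5 of the 13 with at least 50 UMIs were counted as lower, against 2.60% of all genes tested. *Spp2*, *Dnase1*, *Slc5a2* and *Gatm*, genes of tubule cells, were among the 12 genes at the lower end. Their log2 ratios were −5.95, −4.85, −3.61 and −2.84 in pDCs and −0.91, −1.65, −0.69 and −0.44 in proximal tubule cells. Of their young pDC UMIs, 44.0%, 31.7%, 31.6% and 40.8% were in 1 cell. Other genes of the lower end were abundant in tubule cells too. In the tubule class *Spp1* was at 551 and 1081 CPM (log2 ratio 0.97) and *Timp3* at 2257 and 2296 CPM (0.02). *Cyr61* was at 588 and 467 CPM (−0.33) and *Eps8* at 313 and 270.2 CPM (−0.21) there. The part of tubule RNA in these pDC differences was not tested.

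Macrophage and monocyte markers summed to 1549 CPM in young and 2590 CPM in old pDCs, with 12 and 14 of 15 genes having a UMI, against 19719 and 68621 CPM in the macrophage class. Plasma cell markers summed to 2302 and 20322 CPM, B-cell markers to 1537 and 1662 CPM and T-cell markers to 419 and 403 CPM. Of the 12 genes at the upper end, *Jchain* (13 and 1401 UMIs), *Igkc* (362 and 8748 UMIs) and *Ighm* had 98.9%, 93.5% and 84.9% of their old UMIs in 1 pDC. That cell had 64083 UMIs, the most of any pDC, and 26 UMIs of *Siglech*, 8 of *Ccr9* and 97 of *Lyz2*. *Cd79a* and *Chil1* had their highest count in the same cell.

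At the lower end, all 211 UMIs of *Lyz1* and all 120 of *Retnla* came from 1 young cell with 20583 UMIs, 44 of them *Siglech* and 263 *Lyz2*, and the same cell held 96.6% of the *Fn1* UMIs. Another young cell, with 38416 UMIs, held 115 of the 118 UMIs of the proliferation gene *Mki67*. *Csf1r* (7 and 127 UMIs), *Il1b* (23 and 259 UMIs) and *Tgfbi* (6 and 115 UMIs) were each found in 5 old cells, and *Csf1r* and *Il1b* were not higher in old pDCs once cells of over 20000 UMIs were left out. Several of the genes at both ends of the ranking thus had most of their UMIs in 1 barcode that carried genes of other lineages beside pDC genes.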

How the data were processed

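Single-cell suspensions of pooled MRL-lpr kidneys, 1 young and 1 old library, were sequenced with 10x 3′ chemistry, and the authors deposited filtered UMI count matrices made with Cell Ranger on mm10. Depth was 156787812 UMIs in 15076 young and 126334256 UMIs in 12622 old barcodes, of which 11429 and 10232 remained after the filter the study states (under 200 genes or over 20% mitochondrial UMIs removed). No count was normalised before deposit.

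The members and gene lists were chosen with earlier results of these data known. Other cell classes were chosen by marker UMIs, and those under 20 cells were not compared. Counts were summed per class and library and divided by the class total (CPM), and ratios between libraries were given with exact binomial 95% intervals. Shares of cells with *Ccr9*, *Tlr7*, *Itgb7* or *Ly6a* UMIs were also taken after thinning each cell to 1000 UMIs, and other numbers of cells are as counted. No test across samples exists with 1 library per age. Genes were named if they belonged to a list and had at least 10 UMIs or none. Others were among the 25 with the highest excess over the next class, or among 12 at each end of the old to young ratio. Several list genes with fewer UMIs, such as *Tlr9*, *Ifit1*, *Oas1a* and *Ifnk*, were named as well. On simulated counts the 2-fold call recovered 50 of 50 genes raised 4-fold and 26 of 48 raised 2-fold. Of 4952 unchanged genes it called 5 higher and 6 lower. The simulated counts had counting error only and no spread among cells, so they do not cover calls that rest on few cells. Some list members are not reported here. Alternatives changed the limits on UMIs, the cells and the depth. Python 3.11.15, numpy 2.4.6, pandas 2.3.3, scipy 1.17.1, scanpy 1.11.5 and matplotlib 3.10.9 were used.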

Additional observations from a re-analysis of the deposited data

Results flagged for a closer look

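For 4 of 198 genes compared, the old to young ratio lay on opposite sides of 0 in pDCs with Y-linked UMIs and in pDCs with *Xist* UMIs, with both intervals excluding 0. The *Xist* group held 6 young cells, and the difference between the groups was not tested. *Stat2*, a transcription factor of type I interferon signalling, had a log2 ratio of 0.92 (0.18–1.66) in the Y-linked cells and −1.90 (−3.32 to −0.41) in the *Xist* cells, the latter from 8 young and 12 old UMIs. *Egr1*, an immediate early gene, had −0.63 (−1.03 to −0.24) and 1.34 (0.42–2.43), the latter from 10 and 142 UMIs. The chaperone gene *Hspa8* had −0.27 (−0.41 to −0.13) and 0.76 (0.31–1.24), the latter from 44 and 419 UMIs. *Gpx3*, a plasma glutathione peroxidase made by tubule cells, had 0.36 (0.20–0.52) and −1.31 (−2.12 to −0.45), the latter from 19 and 43 UMIs.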

How the results depend on the processing

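No paired analysis was possible because each age has 1 library. The choices without cells of over 20000 UMIs and without cells carrying *Mki67*, *Top2a*, *Lyz2*, *C1qb*, *Cd79a* or *Ms4a1* UMIs were added after seeing the data. Leaving out cells with UMIs of *Cd79a*, *Ms4a1*, *Trac*, *Lyz2* or *Slc34a1* gave pDC shares of 0.297% (young) and 0.352% (old), and the added choice by *Mki67* and the other genes gave 0.401% (old). Against 98 genes higher in old pDCs, there were 160 without the exclusion by *Cd3d*, *Cd3e* and *C1qa*, 26 without *Slc34a1* and other lineage UMIs, 32 in Y-linked and 43 in *Xist* cells, 60 without the top cell of each gene, 249, 41 and 336 with at least 20, at least 100 and no minimum of UMIs, 26 without cells of over 20000 UMIs and 25 without cycling, myeloid or B-cell UMIs. Against 133 lower genes, there were 387 with at least 1 *Siglech* UMI, 25 without *Slc34a1* and other lineage UMIs, 58 in Y-linked and 25 in *Xist* cells, 337, 45 and 483 by those UMI limits, 55 without cells of over 20000 UMIs and 66 without cycling, myeloid or B-cell UMIs. Of the *Xist* set, 0 lower genes were shared with the 133.

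Sign changes were sought only among compared genes that were counted as higher or lower. The log2 ratio changed sign in *Xist* cells for *Jchain* (−0.49), *Socs1* (−0.17), *Dnajb1* (0.10) and *Xist* (−0.28). It did so without cells of over 20000 UMIs for *Csf1r* (−0.92), *Hp* (−0.43), *Il1b* (−4.22), *Mki67* (1.31) and *Ifitm3* (−2.02). Without *Slc34a1* and other lineage UMIs it did so for *Csf1r* (−0.85), *Il1b* (−0.85) and *Spp1* (1.37). The sign also changed without cycling, myeloid or B-cell UMIs for *Jchain* (−0.44) and *Il1b* (−1.44), and in Y-linked cells for *Mki67* (0.79). Both values of *Csf1r*, the value of *Hp* and the −0.85 of *Il1b* are bounds and not measured ratios. These genes had no UMI in old pDCs of those choices, and 3 counts were taken in place of none. Medians moved for pDC surface genes to 0.15 with at least 1 *Siglech* UMI, 0.060 in *Xist* cells, 0.12 without cells of over 20000 UMIs and 0.15 without cycling, myeloid or B-cell UMIs. Medians of interferon-γ genes moved to 0.74 without *Slc34a1* and other lineage UMIs, 0.72 in Y-linked cells and 0.69 without cells of over 20000 UMIs, of class II genes to 0.91 in *Xist* cells, of secretory genes to −0.076 in Y-linked cells and of tubule markers to −1.93 without Scrublet doublets. The share with *Ccr9* was 26.4% (young) at 500 UMIs, 78.9% and 66.1% at 2000 UMIs and 93.4% and 90.5% without thinning. The other 188 medians, and the count of genes above every class in 14 alternatives, stayed within the limits set. The cause was not tested, except that the limits on cells and UMIs change how many are counted.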
